A study of Homo sapiens with 54 samples.

Results

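Levels were followed of 6 genes that rose in the lymphoblastoid lines of this series after calcitriol, the hormonal form of vitamin D: MYRF, DENND6B, ZNF589, HIPK2, CTSZ and VPS37B. They were chosen for that rise, seen earlier in these same arrays, and each was read from its probe set, the 6 being a subset of the 19460 probe sets with a single gene symbol. Their changes in the lymphoblastoid lines, and the difference of those changes from the other lines, are therefore given as a description without a test. They had been grouped as leaning towards lymphoid cells. Outside the lymphoblastoid lines 4 of them also rose at 36 h in HL60, a myeloid line, where 0.714% of all probe sets rose. Among probe sets called higher in the lymphoblastoid lines that share was 14.5%. Most or all of the 4 calls were lost when any 1 HL60 array was left out, and 2 genes passed after array medians were subtracted. MYRF was not higher in HL60.

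RNA of 9 established human cell lines was read on Affymetrix Gene 1.0 ST arrays before calcitriol (0 h, no agent) and after 8 h and 36 h with it, with 2 arrays for each line at each time, 54 arrays in 27 groups. GM07019, GM07348, GM10854 and GM12878 are lymphoblastoid lines, made by Epstein-Barr virus transformation of B cells. The others were HL60 (promyelocytic leukaemia), K562 (chronic myeloid leukaemia with erythroid features), the fibroblast lines AG09309 and AG09319, and the hepatoma line HepG2. No dose of calcitriol is stated in the labels, and no untreated cultures of the later times were used here, so each change belongs to calcitriol and culture time together. The titles number the 2 arrays of a group BR1 and BR2, and no label spells out whether these are separate cultures. The p-values of single lines thus reflect the spread between these arrays alone, which may be technical. Those over the lymphoblastoid lines or between classes took the line as replicate and reflect the spread between lines.

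Array medians lay between 4.98 and 5.31 on the log2 scale, and the arrays of a group correlated at 0.897 to 0.992. In K562 at 36 h, AG09319 at 8 h and HepG2 at 0 h an array stood apart from its line. Marker genes bore out the line labels: the median of the 6 measured B cell markers was 7.69 to 8.75 on lymphoblastoid arrays and 4.25 to 6.03 on the rest, while promyelocyte markers were highest in HL60, erythroid ones in K562, hepatocyte ones in HepG2 and fibroblast ones in the AG lines. The exception was AG09309 at 0 h, where the B cell marker MS4A1 read 8.11, against 3.33 at 8 h and 2.98 at 36 h in the same line and 9.72 in untreated lymphoblastoid lines. Without AG09309 the B cell median on the other arrays reached at most 5.38, and the part of this signal in the AG09309 results was not tested. CYP24A1, the enzyme that begins calcitriol breakdown and a check of the treatment, was higher at 36 h in every line, by a mean of 1.09 in the lymphoblastoid lines, 6.44 in HL60 and 0.57 in HepG2, and VDR, the calcitriol receptor, read 4.66 (K562) to 5.98 (HL60) at 0 h.

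As background, calcitriol binds the vitamin D receptor, which pairs with the retinoid X receptor and binds DNA, classically at a direct repeat of a hexamer spaced by 3 bases. The 6 genes have unlike roles. MYRF encodes a membrane-bound transcription factor that cleaves itself free and is known from myelin formation in oligodendrocytes. ZNF589 encodes a zinc finger protein with a KRAB domain, a class of DNA-binding repressors, and HIPK2 a nuclear kinase that phosphorylates p53 after DNA damage. DENND6B encodes a DENN domain protein, a family that activates Rab GTPases in membrane traffic. CTSZ encodes cathepsin Z, a lysosomal cysteine carboxypeptidase, and VPS37B a subunit of ESCRT-I, which sorts ubiquitinated membrane proteins into multivesicular bodies.

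The 250 bases before the annotated gene start are printed for the 4 genes with an entry in the RefSeq promoter table (build GRCh38.p14), since the treatment acts through a receptor that binds DNA. MYRF and HIPK2 are named only. Capitals mark the hexamer AGGTCA on either strand, and likewise the form AGTTCA, the form GGGTCA and the form GGTTCA, a hexamer on the opposite strand appearing as its reverse complement.
DENND6B (chr22:50327013-50327262, minus strand): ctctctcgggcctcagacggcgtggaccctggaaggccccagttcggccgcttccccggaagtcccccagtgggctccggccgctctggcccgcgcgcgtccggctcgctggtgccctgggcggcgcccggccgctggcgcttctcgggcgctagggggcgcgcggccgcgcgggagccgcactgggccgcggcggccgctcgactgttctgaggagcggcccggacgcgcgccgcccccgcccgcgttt
ZNF589 (chr3:48240854-48241103, plus strand): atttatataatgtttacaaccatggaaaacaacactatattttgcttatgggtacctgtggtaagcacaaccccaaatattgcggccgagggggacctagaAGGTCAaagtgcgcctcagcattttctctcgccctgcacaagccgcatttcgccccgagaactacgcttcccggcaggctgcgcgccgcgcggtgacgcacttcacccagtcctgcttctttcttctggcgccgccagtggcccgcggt
CTSZ (chr20:59007255-59007504, minus strand): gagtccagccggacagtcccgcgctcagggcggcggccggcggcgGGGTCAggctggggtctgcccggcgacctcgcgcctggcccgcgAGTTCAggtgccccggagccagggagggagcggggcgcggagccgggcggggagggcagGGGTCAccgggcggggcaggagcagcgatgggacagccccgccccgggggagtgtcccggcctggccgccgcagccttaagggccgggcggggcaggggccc
VPS37B (chr12:122896125-122896374, minus strand): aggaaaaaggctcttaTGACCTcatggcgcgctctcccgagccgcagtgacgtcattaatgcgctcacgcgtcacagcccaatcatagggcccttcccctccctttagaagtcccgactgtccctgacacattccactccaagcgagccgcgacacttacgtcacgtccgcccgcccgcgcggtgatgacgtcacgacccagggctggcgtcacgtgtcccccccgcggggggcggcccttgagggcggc

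The window of ZNF589 held AGGTCA at 149 to 144 bases before the start, and that of VPS37B held AGGTCA on the opposite strand (TGACCT as printed) at 234 to 229 bases. The CTSZ window held 3 hexamers, GGGTCA at 205 to 200, AGTTCA at 161 to 156 and GGGTCA at 102 to 97 bases before the start. The DENND6B window held none of these letters. Of 35116 RefSeq promoter windows of this length, 33.8% held at least 1 such hexamer, 7.8% at least 2 and 1.4% at least 3, so a single match is common. No window of the 4 genes held a pair in the same orientation spaced by 3 bases, which 23 windows (0.0655%) did. By base composition DENND6B (80.0% G and C) and CTSZ (81.2%) had the windows richest in G and C, against 65.2% for VPS37B and 55.2% for ZNF589. A match of letters is a description and not a binding site.

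MYRF, the transcription factor, was the late member of the set. It read 5.58 and 5.62 at 0 h, 5.64 and 5.85 at 8 h, and 6.53 and 6.27 at 36 h in GM07019. In GM07348 the arrays read 4.89 and 5.22 at 0 h, 5.07 and 5.32 at 8 h, and 6.0 and 6.04 at 36 h. In both lines most of the rise came between 8 h and 36 h. GM10854 gave 5.49 and 5.63 at 0 h, 5.70 and 5.65 at 8 h, and 6.27 and 6.26 at 36 h. GM12878 gave 5.50 and 5.21 at 0 h, 5.50 and 5.53 at 8 h, and 6.23 and 6.16 at 36 h. In each of these 4 lines both 36 h arrays lay above both 0 h arrays, and at 8 h that held in GM07019 and GM10854 but not in GM07348 or GM12878, where the times overlapped. The changes at 36 h were 0.97 in GM07348, 0.80 in GM07019, 0.83 in GM12878 and 0.71 in GM10854, a mean of 0.83 ± 0.11 (SD, n = 4 lines) on the log2 scale or 1.77-fold. The mean at 8 h was 0.14 ± 0.02, 17.0% of the later rise, and by size of change the gene ranked 19 of 19460 at 36 h and 1023 at 8 h. As each array measures the RNA of a whole culture, more cells with the transcript and more transcript per cell cannot be told apart.

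Outside the lymphoblastoid lines MYRF showed no rise of that size. HL60 arrays read 5.30 and 5.04 at 0 h, 4.96 and 4.76 at 8 h, and 5.08 and 5.07 at 36 h. Both 8 h arrays were thus below both 0 h arrays, and the 36 h arrays fell within the 0 h range. Every HL60 array lay within the range of the array medians (4.98 to 5.31) or under it, as did the 0 h arrays of GM07348. At 36 h the changes were 0.10 in K562, -0.24 in AG09309, -0.14 in AG09319 and -0.13 in HepG2. HepG2 had the highest untreated level of the 9 lines, 6.25 and 6.38, and read 6.24 and 6.13 at 36 h, inside the range of the lymphoblastoid arrays at that time (6.0 to 6.53).

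ZNF589, the KRAB zinc finger gene, was early. GM07019 arrays read 6.05 and 6.0 at 0 h, 6.62 and 6.83 at 8 h, and 6.88 and 7.04 at 36 h. GM07348 arrays read 6.03 and 5.96 at 0 h, 6.84 and 6.62 at 8 h, and 7.35 and 7.07 at 36 h. In both lines every 8 h array was already above every 0 h array by more than the distance between arrays. In GM10854 the readings were 5.91 and 5.66 at 0 h, 6.21 and 6.41 at 8 h, and 6.81 and 6.53 at 36 h. In GM12878 they were 6.19 and 6.30 at 0 h, 6.43 and 6.64 at 8 h, and 7.08 and 6.69 at 36 h. The 8 h arrays stood above the 0 h arrays in all 4 lines. The changes at 36 h were 1.21 in GM07348, 0.93 in GM07019, 0.64 in GM12878 and 0.88 in GM10854, a mean of 0.92 ± 0.24 (SD, n = 4 lines) or 1.89-fold. The mean at 8 h was 0.56 ± 0.21, 61.3% of the 36 h rise, and rank 5 of 19460. HL60 arrays read 5.61 and 5.79 at 0 h, 6.27 and 6.02 at 8 h, and 6.36 and 6.34 at 36 h, with no overlap between either later time and 0 h. The other changes at 36 h were -0.25 in K562, -0.18 in AG09309, -0.04 in AG09319 and 0.13 in HepG2, and in the fibroblast lines and HepG2 every array at every time lay at or below 5.19, within the range of the array medians or under it.

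HIPK2, the nuclear kinase gene, read 7.21 and 6.88 at 0 h, 7.30 and 7.72 at 8 h, and 7.80 and 7.63 at 36 h in GM07019. GM07348 gave 7.27 and 7.03 at 0 h, 7.65 and 7.39 at 8 h, and 8.40 and 8.0 at 36 h. The 36 h arrays lay clear of the 0 h arrays in both. GM10854, where the gene was highest before treatment, gave 7.76 and 7.68 at 0 h, 8.07 and 8.20 at 8 h, and 8.42 and 8.61 at 36 h. GM12878 gave 7.0 and 7.05 at 0 h, 7.51 and 7.21 at 8 h, and 7.74 and 7.46 at 36 h. No lymphoblastoid line had an overlap between 0 h and either later time. At 36 h the changes were 1.05 in GM07348, 0.67 in GM07019, 0.58 in GM12878 and 0.79 in GM10854, a mean of 0.77 ± 0.21 (SD, n = 4 lines) or 1.71-fold, with 0.40 ± 0.06 at 8 h (51.6% of it). HL60 arrays read 6.60 and 7.09 at 0 h, 7.54 and 7.47 at 8 h, and 7.60 and 7.87 at 36 h, so the 36 h arrays lay within the range of the lymphoblastoid arrays of that time. The other changes at 36 h were 0.38 in K562, 0.04 in AG09309, -0.44 in AG09319 and -0.34 in HepG2, on both sides of 0.

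DENND6B, the gene of Rab regulation, had the widest range of changes among the lymphoblastoid lines. GM07348 arrays read 6.14 and 6.02 at 0 h, 6.64 and 6.77 at 8 h, and 7.38 and 7.44 at 36 h. GM07019 arrays read 6.27 and 6.40 at 0 h, 6.53 and 6.48 at 8 h, and 7.03 and 7.05 at 36 h. GM07348 thus started lower and ended higher than GM07019. GM10854 arrays read 6.44 and 6.41 at 0 h, 6.91 and 6.91 at 8 h, and 7.33 and 7.10 at 36 h. GM12878 arrays read 6.25 and 6.32 at 0 h, 6.58 and 6.63 at 8 h, and 7.13 and 7.08 at 36 h. At both later times the arrays were above all 0 h arrays of the same line in all 4 lines. The changes at 36 h were 1.33 in GM07348, 0.71 in GM07019, 0.82 in GM12878 and 0.79 in GM10854, a mean of 0.91 ± 0.28 (SD, n = 4 lines) or 1.88-fold, with 0.40 ± 0.19 at 8 h (43.8% of it). HL60 arrays read 6.23 and 5.93 at 0 h, 6.26 and 6.59 at 8 h, and 6.85 and 6.79 at 36 h, again without overlap. The other changes at 36 h were 0.40 in K562, -0.12 in AG09309, 0.00 in AG09319 and -0.06 in HepG2. In K562 both 36 h arrays (6.35 and 6.32) lay above both 0 h arrays (5.80 and 6.06), and in AG09319 the 8 h arrays were far apart (6.01 and 6.75), the higher one on the array that stood apart.

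CTSZ, the lysosomal protease gene, read 7.59 and 7.54 at 0 h, 7.72 and 8.03 at 8 h, and 8.30 and 8.17 at 36 h in GM07019. GM07348 gave 8.17 and 8.09 at 0 h, 8.64 and 8.43 at 8 h, and 9.05 and 8.91 at 36 h. In both lines no time overlapped the time before it. GM10854 gave 7.94 and 7.57 at 0 h, 8.11 and 8.07 at 8 h, and 8.37 and 8.24 at 36 h. GM12878 gave 7.62 and 7.91 at 0 h, 8.04 and 7.94 at 8 h, and 8.55 and 8.49 at 36 h. At 8 h the margin was small in these lines, with a lowest 8 h array of 8.07 in GM10854 and 7.94 in GM12878 and a highest 0 h array of 7.94 and 7.91. By 36 h the line changes were 0.85 in GM07348, 0.67 in GM07019, 0.76 in GM12878 and 0.55 in GM10854, a mean of 0.71 ± 0.13 (SD, n = 4 lines) or 1.63-fold, with 0.32 ± 0.07 at 8 h (45.1% of it). HL60 arrays read 6.99 and 6.94 at 0 h, 7.23 and 7.12 at 8 h, and 7.64 and 7.70 at 36 h, all later arrays above the 0 h arrays. The other changes at 36 h were -0.03 in K562, 0.37 in AG09309, 0.00 in AG09319 and -0.21 in HepG2. AG09309, the line with the highest untreated CTSZ, read 9.17 and 9.19 at 36 h and 8.90 and 8.71 at 0 h, its 0 h arrays being those with B cell signal.

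VPS37B, the ESCRT-I subunit gene, had the smallest SD of the change among these lines. GM07019 arrays gave 6.44 and 6.43 at 0 h, 6.63 and 7.03 at 8 h, and 7.18 and 7.11 at 36 h. GM07348 arrays gave 7.33 and 7.18 at 0 h, 7.70 and 7.45 at 8 h, and 8.19 and 7.79 at 36 h. Levels differed between these lines by more than the change within either, while the changes were similar. GM10854 arrays gave 7.04 and 6.90 at 0 h, 7.26 and 7.55 at 8 h, and 7.51 and 7.63 at 36 h. GM12878 arrays gave 6.60 and 6.54 at 0 h, 6.99 and 6.94 at 8 h, and 7.29 and 7.12 at 36 h. All later arrays lay above all 0 h arrays within each line. The changes at 36 h were 0.73 in GM07348, 0.71 in GM07019, 0.64 in GM12878 and 0.60 in GM10854, a mean of 0.67 ± 0.06 (SD, n = 4 lines) or 1.59-fold, with 0.39 ± 0.05 at 8 h (57.7% of it). HL60 arrays gave 6.33 and 6.28 at 0 h, 6.90 and 6.95 at 8 h, and 7.0 and 7.0 at 36 h, and there most of the rise was present at 8 h. The other changes at 36 h were -0.06 in K562, -0.17 in AG09309, -0.23 in AG09319 and 0.02 in HepG2.

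**Figure D1:**
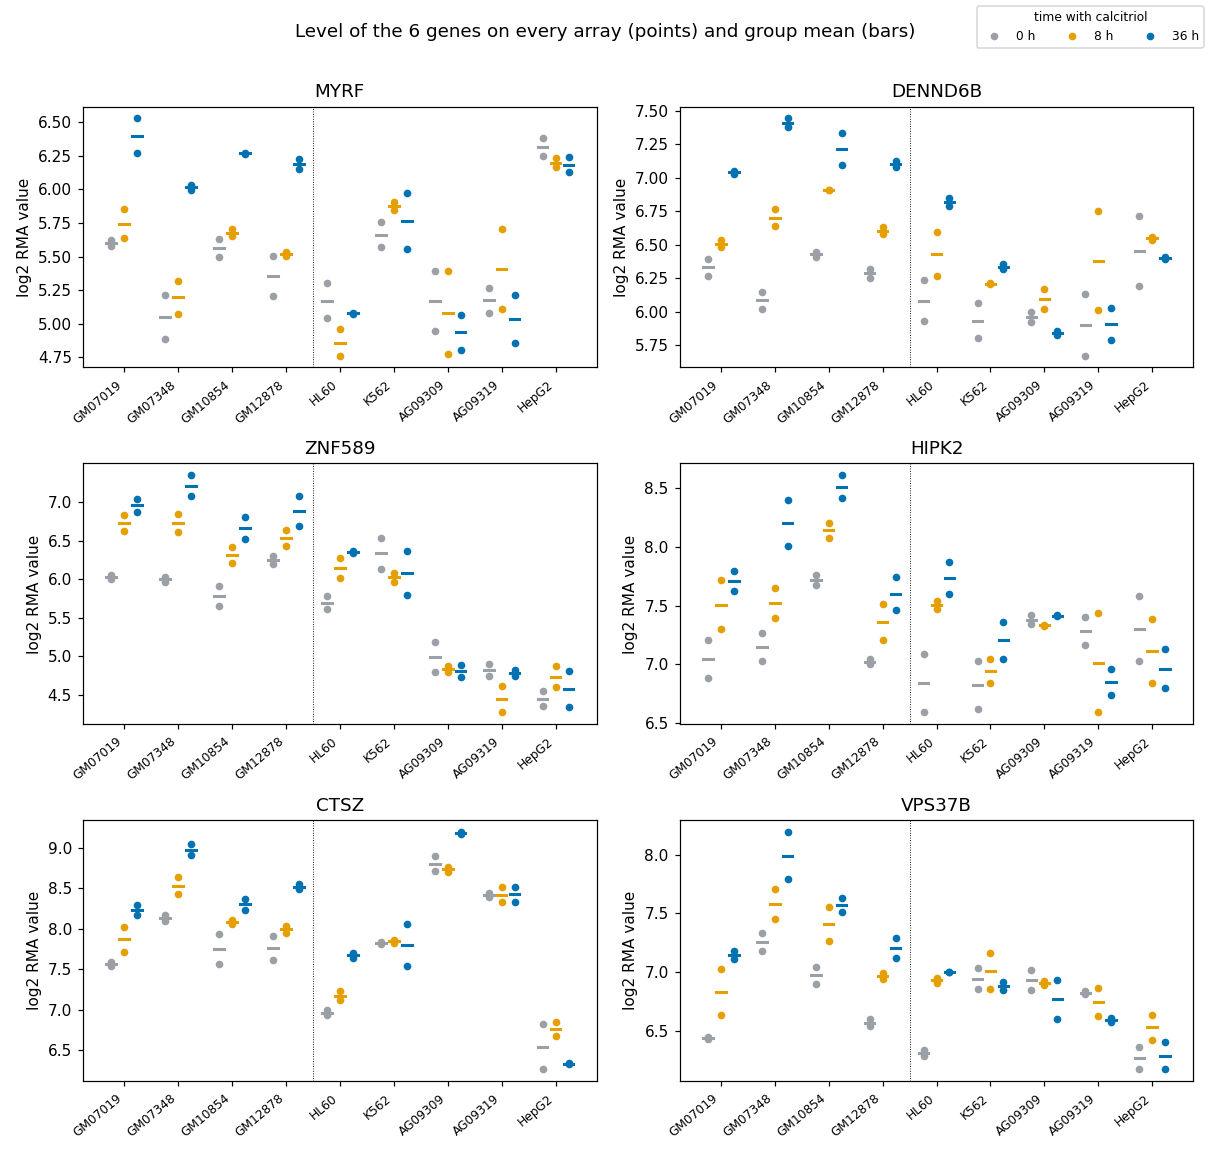
Log2 RMA level of each of the 6 genes on all 54 arrays, by cell line (lymphoblastoid lines left of the dotted line) and time with calcitriol; points are arrays and bars are means of 2 arrays. The 36 h points lie above the 0 h points in all 4 lymphoblastoid lines for all 6 genes, and in HL60 for 5 of them, all but MYRF.

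Counted together, both 36 h arrays lay above both 0 h arrays in all 4 lymphoblastoid lines for 6 of 6 genes, as they did for 1.12% of all probe sets, and at 8 h for 5 of 6, against 0.17% of all probe sets. All 6 were among the 1.06% of probe sets that passed limma with a rise at 36 h over the 4 lines, at an adjusted p under 0.05, and ZNF589 was among the 0.0257% that passed at 8 h. The genes were chosen on these contrasts, so these counts describe the choice. Their median change was 0.80 at 36 h and 0.39 at 8 h, where the median of all probe sets was -0.01 at both times. From 8 h to 36 h the mean further change was 0.68 for MYRF, 0.51 for DENND6B, 0.39 for CTSZ, 0.37 for HIPK2, 0.35 for ZNF589 and 0.28 for VPS37B.

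The share of the 36 h rise that was present at 8 h was lowest for MYRF in every lymphoblastoid line, with 14.9% to 19.4%. The lowest share of any other gene in a line was 24.7%, DENND6B in GM07019. In that line the 8 h changes, 0.14 ± 0.19 (SE) for MYRF and 0.18 ± 0.18 for DENND6B, cannot be told apart. DENND6B ranged up to 61.4%, CTSZ from 30.0% to 60.6%, HIPK2 from 35.3% to 69.5%, VPS37B from 43.8% to 72.7% and ZNF589 from 44.5% to 75.5%. These shares overlap among the 5 genes, and the 8 h and 36 h changes of a line are taken from the same 0 h arrays. In HL60 the share was 89.8% for VPS37B, 74.2% for HIPK2, 47.3% for DENND6B and 29.9% for CTSZ.

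**Figure D2:**
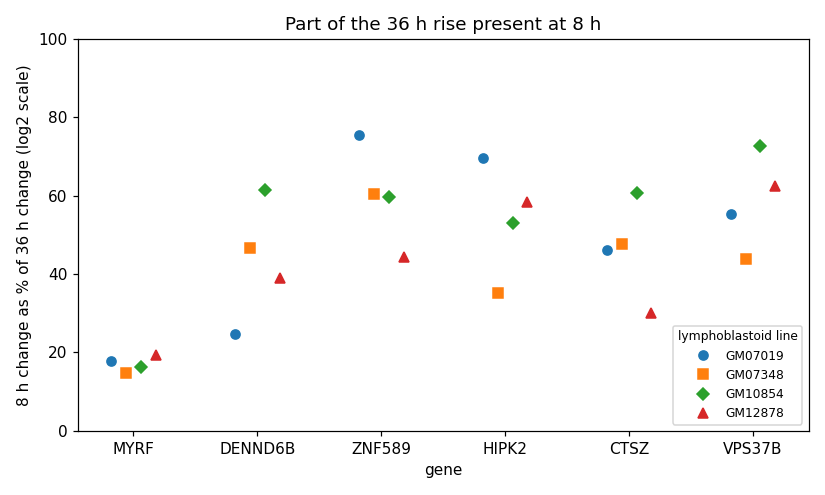
Share of the 36 h change that was present at 8 h, in percent, for each gene and lymphoblastoid line. MYRF lies between 14.9% and 19.4% in the 4 lymphoblastoid lines, and every other gene lies above it in each line.

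Among the 4 lymphoblastoid lines the size of the rise at 36 h was compared. GM07348 had the largest change for all 6 genes, and DENND6B had the widest range, 0.71 to 1.33. Over all probe sets none passed limma's moderated F test of differences among these lines in that change (0%, 0 of 19460, with 558 at an unadjusted p under 0.05). The 6 genes were chosen for a rise over these lines, so their own p-values are not given.

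Set against the 5 other lines the 6 genes had higher mean changes, with HL60 on the lymphoblastoid side for all but MYRF. Over the 4 lymphoblastoid lines against the 5 others, the mean change at 36 h was 0.83 against -0.10 for MYRF, 0.91 against 0.19 for DENND6B, and 0.92 against 0.06 for ZNF589. It was 0.77 against 0.11 for HIPK2, 0.71 against 0.17 for CTSZ and 0.67 against 0.05 for VPS37B. The differences, 0.54 (CTSZ) to 0.93 (MYRF), ranked between 26 (MYRF) and 257 (CTSZ) among all probe sets, of which 0.0154% passed limma for a class difference. Without HL60 the mean of the remaining 4 lines was -0.11 to 0.06 for all 6 genes.

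**Figure D3:**
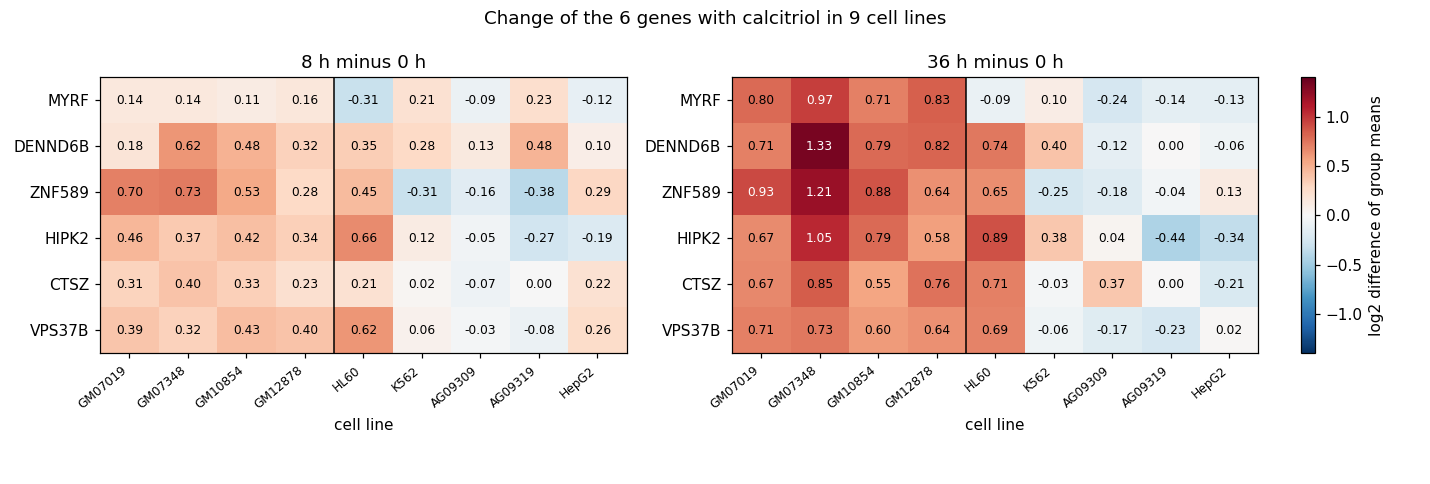
Change in log2 level from 0 h at 8 h and 36 h for the 6 genes (down) in the 9 lines (across); each cell is the difference of the means of 2 arrays. The lymphoblastoid columns hold 0.55 to 1.33 at 36 h, the HL60 column 0.65 to 0.89 for all genes but MYRF (-0.09), and the other columns -0.44 to 0.40.

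HL60 was no part of the rule that chose the genes, so its changes could be tested, although its values were known when the genes were grouped. The test used 1 spread per probe set from all 54 arrays, not that of HL60 alone. At 36 h 4 of 6 genes rose in HL60, against 0.714% of all probe sets and 14.5% (30 of 207) of the probe sets called higher in the lymphoblastoid lines, a count that holds the 6 genes. VPS37B rose by 0.69 ± 0.16 (SE, n = 2 arrays against 2; limma adjusted p = 0.0153) and CTSZ by 0.71 ± 0.16 (limma adjusted p = 0.0181). DENND6B rose by 0.74 ± 0.18 (limma adjusted p = 0.0269) and HIPK2 by 0.89 ± 0.23 (limma adjusted p = 0.0466), so the folds of the 4 were 1.61 to 1.86. ZNF589 was 0.65 ± 0.19 higher and did not pass (limma adjusted p = 0.115), and MYRF was at -0.09 ± 0.19 (limma adjusted p = 0.999). For 5 of 6 genes both 36 h arrays were above both 0 h arrays in HL60, against 15.7% of all probe sets, and in either direction 0.868% of all probe sets passed.

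The HL60 calls depended on its few arrays. When 1 of the 4 HL60 arrays was left out, most or all of the 4 calls were lost, a group then having 1 array. The sizes then ran from 0.58 to 0.89 for DENND6B and 0.65 to 1.14 for HIPK2. They ran from 0.68 to 0.74 for CTSZ and 0.66 to 0.72 for VPS37B, all on the same side of 0. HIPK2 also missed the threshold, at 0.0502 to 0.0563, without any 1 array of AG09309 or AG09319 at 0 h or 36 h or of HepG2 at 36 h. After subtraction of array medians DENND6B and CTSZ passed (2), and after quantile normalization ZNF589 passed in limma (adjusted p = 0.0262) while DENND6B (0.0948) and CTSZ (0.0808) did not. With the HL60 arrays as the only source of the spread HIPK2 was the 1 gene to pass. The share of all probe sets that passed in these settings was not counted, so the lost calls cannot be set against it.

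At 8 h none of the 6 passed limma in HL60 (0), where 0.236% of all probe sets did. At an unadjusted p under 0.05 there were 3 of the 6, against 4.52% of all probe sets. VPS37B was 0.62 higher (limma adjusted p = 0.105), HIPK2 0.66 (0.555), ZNF589 0.45, DENND6B 0.35 and CTSZ 0.21, while MYRF was at -0.31. For 5 of 6 genes, all but MYRF, both 8 h arrays lay above both 0 h arrays, against 16% of all probe sets, and 0.231% of all probe sets passed with a rise. Leaving out the 3 arrays standing apart, all of other lines, VPS37B passed limma at 8 h (adjusted p = 0.0459) at the same size.

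Whether the HL60 change at 36 h differed from that of the 4 other lines that are not lymphoblastoid was tested after the values had been seen. The spread in this test was that between arrays and held no spread between lines. For HIPK2 the 4 lines themselves ran from -0.44 to 0.38. VPS37B changed by 0.80 ± 0.18 more in HL60 (SE; limma adjusted p = 0.0114) and HIPK2 by 0.98 ± 0.26 more (limma adjusted p = 0.0496), 2 of 6 genes against 0.94% of all probe sets. The difference was 0.74 ± 0.21 for ZNF589 (adjusted p = 0.0871 by limma), 0.68 ± 0.20 for DENND6B (0.0978) and 0.67 ± 0.18 for CTSZ (0.0641), none of which passed, and 0.01 ± 0.22 for MYRF (0.9996). Without the 3 arrays that stood apart all but MYRF passed (5), at differences of 0.62 for DENND6B, 0.79 for ZNF589 and 0.67 for CTSZ. The share of all probe sets that passed in this setting was not counted, so the 5 cannot be set against it. After subtraction of array medians HIPK2 did not pass (limma adjusted p = 0.119) and DENND6B did (0.0396).

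In K562, AG09309, AG09319 and HepG2 none of the 6 genes passed limma at 36 h (0 in each). At an unadjusted p under 0.05 there was 1 of the 6 in K562, against 8.18% of all probe sets, and 1 in AG09309, against 16.1%. After adjustment 0.0411% of all probe sets changed in K562, 4.91% in AG09309, 4.49% in AG09319 and 1.84% in HepG2. The sizes nearest a rise were DENND6B in K562, 0.40 ± 0.18 (limma adjusted p = 0.553), HIPK2 in K562, 0.38 ± 0.23 (limma adjusted p = 0.685), and CTSZ in AG09309, 0.37 ± 0.16 (limma adjusted p = 0.228). Against the 8 h arrays, with their low MS4A1, CTSZ in AG09309 was 0.45 higher at 36 h (limma adjusted p = 0.310), a contrast in which 0.38% of all probe sets changed. HIPK2 in AG09319 was at -0.44 ± 0.23 (limma adjusted p = 0.447). At 8 h none of the 6 passed limma in any of the 4 lines (0 in each), and 1 of the 6 had an unadjusted p under 0.05 in AG09319, against 26.8% of all probe sets. After adjustment 1.53% of all probe sets changed at 8 h in AG09309, 0.324% in AG09319 and 0% in K562 and HepG2. In AG09319 at 8 h DENND6B was 0.48 higher (limma adjusted p = 0.126), and with replicate 1 left out, so that only the array that stood apart remained, MYRF (0.53), DENND6B (0.85) and HIPK2 (-0.69) passed.

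None of the 6 passed limma for untreated level between the 4 lymphoblastoid and 5 other lines (0, with 0 at an unadjusted p under 0.05). Of all probe sets 3% passed, so 0 of 6 is near that share and does not show equal levels. ZNF589 averaged 6.01 ± 0.19 in lymphoblastoid lines (SD, n = 4) and 5.26 ± 0.75 in the others (SD, n = 5). The difference was 0.75 ± 0.35 (SE; limma unadjusted p = 0.0571, limma adjusted p = 0.400). Sample titles come in a pair of styles (GM12878, AG09319 and HepG2 have the second), and within the 6 lines of the first the difference was 0.26, with title style as a term 0.67 and without AG09309 0.68, none passing. The other differences ran from -0.11 for MYRF to 0.22 for DENND6B (limma adjusted p between 0.654 and 0.972).

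The order of untreated levels over the 9 lines was different for each gene. MYRF was highest in HepG2 (6.32), clear of K562 (5.66), below which each line overlapped its neighbour, down to GM07348 (5.05). ZNF589 was highest in K562 (6.34) and GM12878 (6.25), which overlapped, and lowest in AG09309, AG09319 (4.83) and HepG2 (4.45). HIPK2 was highest in GM10854 (7.72), clear of the rest, which overlapped in sequence from AG09309 (7.38) to K562 (6.83). DENND6B spanned little, 6.45 in HepG2 to 5.90 in AG09319, with 6 of 8 neighbouring pairs overlapping. CTSZ was highest in AG09309 (8.80), AG09319 (8.42) and GM07348 (8.13), each clear of the next, and lowest in HL60 (6.96) and HepG2 (6.54). VPS37B was highest in GM07348 (7.26), clear of GM10854 (6.97), and lowest in HL60 (6.31) and HepG2 (6.27), which overlapped.

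Genes of the same families and pathways were read from lists drawn up around the roles of the 6, 105 of 111 genes being measured. At 36 h in the lymphoblastoid lines 3 of the 105 rose and 0 fell, where 1.06% of all probe sets rose. The median change of the lists together was 0.05, against -0.01 for all probe sets. The lists were chosen with earlier results of these data known, so this count is not independent of them. Of 19 cathepsins, legumain and cystatins 2 rose: LGMN, the lysosomal asparaginyl protease legumain, by 0.63 ± 0.09 (SE, n = 4 lines; limma adjusted p = 0.000781) and CTSS, the cathepsin known for trimming the MHC class II invariant chain, by 0.55 ± 0.09 (limma adjusted p = 0.00224), while the list's median was 0.01. Of 21 genes on the ESCRT list only CD2AP, an adaptor protein and not an ESCRT subunit, rose, by 0.51 ± 0.09 (limma adjusted p = 0.00773). The call was lost without GM10854 (0.143) or GM12878 (0.0546), and the list median was 0.10. No gene passed limma (0) among 8 MYRF regulators and myelin genes or 19 DENN family and Rab genes. The same held for 21 KRAB cofactors and related zinc fingers and 17 HIPK kinases, substrates and degradation factors. The medians of these lists were -0.02 to 0.06.

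The largest changes in those lists did not pass limma. They were TMEM98 (0.17) and SOX10 (-0.17) around MYRF, DENND1B (0.27) and DENND4C (0.21) in the DENN family, ZNF583 (0.37) and ZNF140 (0.26) among zinc fingers, and TP53INP1 (0.30) and WSB1 (0.23) around HIPK2. At 8 h, in the class difference and in HL60 none of the 105 passed limma (0 each). Of all probe sets 0.0257% passed at 8 h, 0.0154% in the class difference and 0.868% in HL60 at 36 h. In HL60 CTSS was 0.83 higher (limma adjusted p = 0.0547) and LGMN 0.63 (limma adjusted p = 0.0759).

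The nearest 3 measured genes on each side of every gene, 36 in all, were read to see whether the rises extended to neighbours in the RefSeq gene order. Of these 2 rose in the lymphoblastoid lines at 36 h, where 1.06% of all probe sets rose, and the median of the 36 was 0.01. CAMP, which encodes the antimicrobial peptide cathelicidin and lies beside ZNF589, rose by 1.61 ± 0.17 (SE, n = 4 lines; limma adjusted p = 4.4e-05), the lines ranging from 0.94 (GM10854) to 2.64 (GM07348). PLXNB2, a plexin receptor gene beside DENND6B, rose by 0.41 ± 0.08 (limma adjusted p = 0.0117), a call lost without GM07019 (0.113), GM10854 (0.152) or GM12878 (0.0699). Both also rose in HL60 at 36 h, as 0.714% of all probe sets did. CAMP rose there by 1.01 ± 0.20 (limma adjusted p = 0.00328) and PLXNB2 by 0.70 ± 0.17 (limma adjusted p = 0.0287). At 8 h none of the 36 passed limma (0), where 0.0257% of all probe sets did, so 0 is near that share.

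The other neighbours did not pass. Around ZNF589 they lay between -0.15 (PLXNB1) and 0.15 (CDC25A), with NME6 on its other side at 0.05, and around DENND6B between -0.16 (ADM2) and -0.03 (PPP6R2). Around MYRF the antisense gene MYRF-AS1 was at -0.02, TMEM258 at 0.09, FEN1 at 0.05 and DAGLA at -0.21. Next to HIPK2 the values were -0.20 (KLRG2) to 0.14 (PARP12), next to CTSZ -0.09 (NELFCD) to 0.02 (GNAS), and next to VPS37B -0.16 (OGFOD2) to 0.19 (DENR). In the class difference no neighbour passed limma (0), where 0.0154% of all probe sets did. CAMP was at 1.60 ± 0.29 (adjusted p = 0.0767 by limma). That value for CAMP passed under several other settings, with 0.00305 without HL60, 0.0329 after subtraction of array medians and 0.0377 after quantile normalization. Within the first style of sample title it was 1.49 (limma adjusted p = 0.528), and with style as a term 1.57 (0.114).

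**Figure D4:**
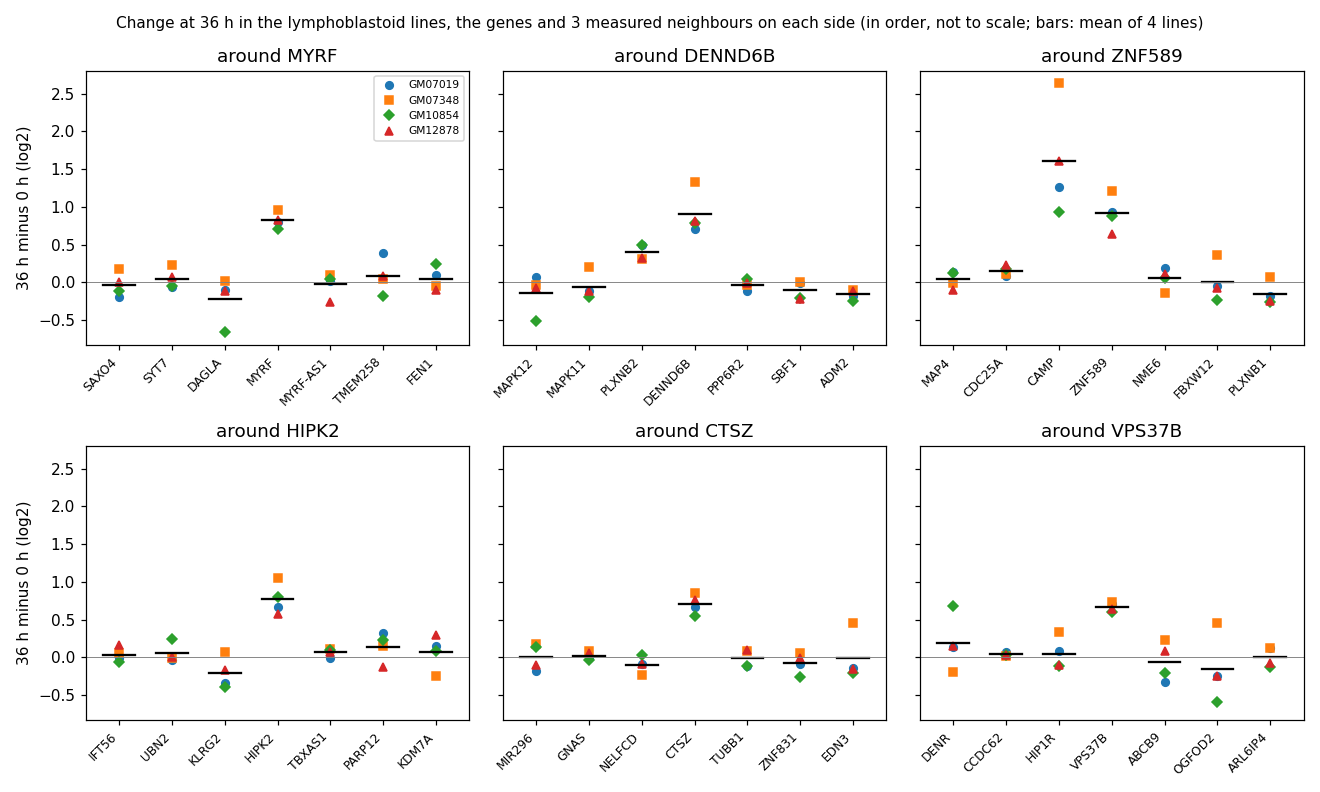
Change in log2 level at 36 h against 0 h in the 4 lymphoblastoid lines (points) and their mean (bars) for each gene (centre) and its 3 nearest measured genes on each side in the RefSeq gene order, placed by rank and not by distance. CAMP beside ZNF589 (1.61) and PLXNB2 beside DENND6B (0.41) are the 2 neighbours that passed.

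Over the 18 changes from 0 h (9 lines, 8 h and 36 h, sharing their 0 h arrays), the pattern most like each gene was named by Pearson correlation across lines, as a description. For MYRF these were IQSEC1 (0.886), CD79A (0.852) and ANP32CP (0.839). DENND6B was most like CAMP (0.944), ANP32CP (0.843) and CD38 (0.830), and ZNF589 most like VPS37B (0.890), PDE7A (0.865) and MAP3K1 (0.861). For HIPK2 these were CD38 (0.888), PRKD2 (0.871) and VPS37B (0.870), for CTSZ STS (0.858), ZNF589 (0.819) and FAR2 (0.819), and for VPS37B ZNF589 (0.890), CD38 (0.889) and TOP1 (0.871). Among the 6 genes the 15 pairs had coefficients of 0.565 to 0.890, the 5 pairs with MYRF reaching 0.808. The 18 changes include those of the lymphoblastoid lines, on which the 6 genes were chosen. Likeness among them, or to other genes that rose there, thus follows in part from that choice. CAMP, next to ZNF589 in the gene order, was less like ZNF589 (0.770) than like DENND6B (0.944), which lies on another chromosome. GM07348 had the largest changes of both CAMP and DENND6B, at 8 h (1.24 and 0.62) as at 36 h (2.64 and 1.33).

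**Figure D5:**
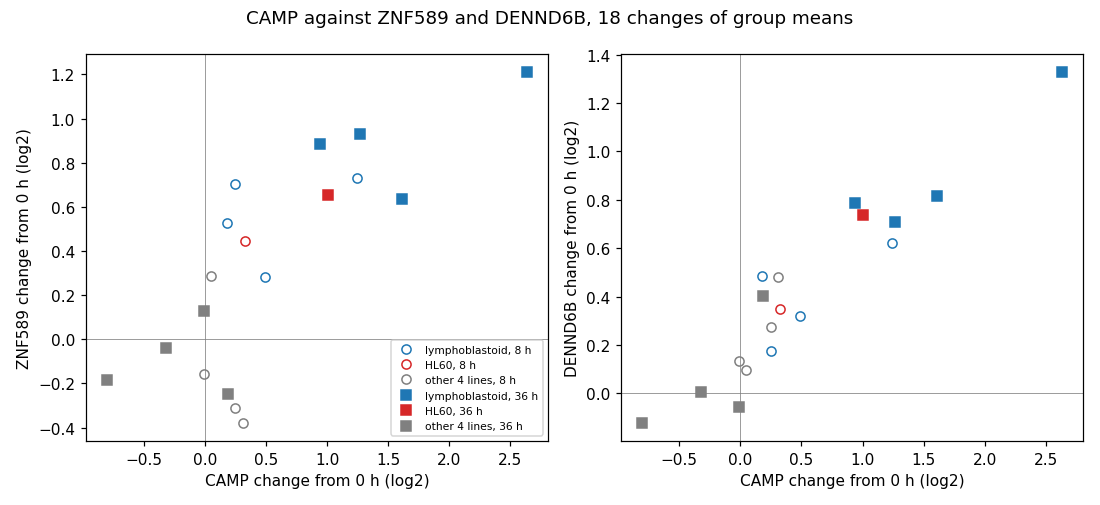
Change in log2 level of CAMP (across) with that of ZNF589 (left, up) and DENND6B (right, up), 18 points a panel: open circles are 8 h and filled squares 36 h against 0 h, in blue for lymphoblastoid lines, red for HL60 and grey for the other 4. The correlation across these points is 0.944 with DENND6B and 0.770 with ZNF589, and GM07348 at 36 h lies at the upper right of both panels.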

How the data were processed

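RNA of 9 cell lines was hybridised to 54 arrays. Per the labels' protocols, total RNA was turned into biotinylated cDNA, and per the submitters' processing notes the deposited log2 values came from Affymetrix Expression Console 1.0 and RMA. Groups follow the cell line and time fields, as the titles of GM10854 name another line. Of 33297 probe sets, 19460 had 1 symbol, each of the 6 genes having 1 probe set, and no filter was applied. limma 3.58.1 in R 4.3.3 was used with Benjamini-Hochberg adjustment over 19460 and a threshold of 0.05. Single lines were tested in 1 fit of 27 groups, classes and lymphoblastoid means with the line as replicate (2 arrays averaged). The number of arrays limits the precision. By replicate number the deviations from group means correlated at -0.414 to 0.585 between times of a line. All 3 correlations were over 0.1 in K562 (0.356 to 0.585), GM07348 (0.235 to 0.343) and GM12878 (0.105 to 0.308), and not in the other 6 lines. The main setting has no block. Members and lists were chosen with earlier results of these data known. Named are the 6 genes, list genes that passed or else the 2 largest changes of a list, the 3 nearest measured genes on each side, the 3 most alike genes, and CYP24A1 and VDR. Alternatives were quantile normalization, median centring, a filter on low values, 1 probe set per gene, removal of arrays or lines, title style, each line's own arrays and a replicate block.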

Additional observations from a re-analysis of the deposited data

Results flagged for a closer look

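Among the 5 lines that are not lymphoblastoid, VPS37B in HL60 was far from the rest at 36 h, with a change of 0.69 in HL60 and -0.23 to 0.02 in the other 4 lines. The gap was 0.728 of the whole range. This was 1 of 36 groups of lines examined, and chance marks about 1 in 20.

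The HL60 change at 36 h differed from the mean of K562, AG09309, AG09319 and HepG2 in a test chosen after the values were seen, by 0.98 for HIPK2 (limma adjusted p = 0.0496) and by 0.80 for VPS37B (limma adjusted p = 0.0114). The HL60 change was 0.89 for HIPK2 and 0.69 for VPS37B, against a mean of -0.09 and -0.11 in the other 4 lines. The spread behind these p-values was that between arrays, not between lines.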

How the results depend on the processing

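Of 1888 values of single genes under other settings, 1830 kept their direction or stayed uncalled, 40 lost and 18 gained a call, 0 reversed, and 59 uncalled ones changed sign. Of the 178 counts 26 moved by over 1.5 times. The count of the 6 genes called in the 5 other lines at 36 h, and in HL60 alone, was 4 and became 2 after subtraction of array medians, 1 with only the arrays of the line and 0 to 4 with 1 array left out. At 8 h the count was 0 and became 1 without the 3 arrays that stood apart, and 0 to 3 with 1 array left out. The 2 genes in which HL60 differed from the 4 other lines became 5 without the 3 arrays, where the share of all probe sets was not counted. Of list genes rising at 36 h the count of 3 ranged from 2 to 6 with 1 line left out (6 without GM07348), and of neighbours the count of 2 from 1 to 3, and was 1 in the first title style. Neighbours with a class difference numbered 0, but 1 (CAMP) after quantile normalization, subtraction of array medians, the filter on low values, or without the 3 arrays, and 0 to 1 with 1 line left out. The cause was not tested, beyond the fewer arrays when some are left out. Shares of all probe sets were not counted under the other settings. With the replicate block 4 of the 6 were called in HL60 at 36 h, 0 at 8 h and 2 against the 4 other lines, and it changed no call of the 6. The 2 arrays a group and the absence of detection calls limit low levels, such as those of ZNF589 in HepG2 and MYRF in HL60.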
